A study of Mus musculus with 1183 samples.

Results

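Integrins are adhesion receptors built from an α and a β chain, and both chains must be made for the receptor to reach the cell surface. On leukocytes, the β2 chain pairs with the α chains of LFA-1, Mac-1 and CD11c, the α4 chain pairs with β1 or β7, and the αE chain pairs with β7. LFA-1 binds ICAM proteins on vessel walls, α4β1 binds VCAM1 and fibronectin, α4β7 binds MAdCAM1 and αEβ7 binds E-cadherin on epithelium.

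The 9 subunit genes described here are Itgal, Itgam, Itgax, Itgb2, Itgae, Itgb7, Itga4, Itgb1 and Itgav. They were taken by symbol from a table of 18072 genes, and all 9 passed the filter on low counts used for testing. The cells came from the distal lung of 1 female and 1 male mouse at postnatal day 7 under hyperoxia, that is, breathing oxygen-enriched air, a common way to model lung injury of preterm birth. No strain, genotype or oxygen level is given in the labels, no cells kept in room air were analysed here, and so no value below measures an effect of hyperoxia. Each of the 1183 cells, 598 from the female and 585 from the male, was sequenced in its own well of a plate, and the labels place them in 16 subtypes.

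All but 10 cells were sorted on CD45, which leukocytes carry on their surface. Reads per cell ran from 16753 to 7560179, with a median of 1100966. Levels are given as CPM, the reads of a gene summed over all cells of a subtype in an animal and scaled to a library total of 1000000 reads, with the female before the male. The summed libraries held from 6024429 to 235566546 reads. Of the 4 markers listed for each subtype, all 4 were highest in their own subtype in both animals for B cell, T cell, NK cell, neutrophil, mast cell, basophil, DC I, DC III, Mac IV and Mac V. The count was 3 for IL cell and DC II, 2 for Mac III, and 0 for Mac II and mast cell II, so these last 2 are called by their labels only. How cells were assigned to subtypes is not stated, and if expression was used, the tests describe classes that it had already parted. With 1 animal per sex there is no test between sexes, and p-values measure only the spread between 2 animals.

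The windows before the start of 4 subunit genes are shown as background, and no expression result below uses them. Of these genes, Itgam and Itgax share the β2 chain as partner, and Itga4 and Itgb7 are partners of each other. Each window holds 250 bases read towards the gene, from the RefSeq promoter table of the GRCm38.p6 build. Capitals mark 3 short strings, searched on both strands: GAGGAA, a core bound by the myeloid factor PU.1; GGGCGG, the GC box; and TGTGGT, a core bound by RUNX factors. A match on the other strand is in capitals as its reverse complement.
Itgam, chr7:128062390-128062639, plus strand: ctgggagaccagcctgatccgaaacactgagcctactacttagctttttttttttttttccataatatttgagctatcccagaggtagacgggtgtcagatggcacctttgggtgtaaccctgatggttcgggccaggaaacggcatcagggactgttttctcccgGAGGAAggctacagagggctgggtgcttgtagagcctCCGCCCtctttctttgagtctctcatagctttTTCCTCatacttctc
Itgax, chr7:128129300-128129549, plus strand: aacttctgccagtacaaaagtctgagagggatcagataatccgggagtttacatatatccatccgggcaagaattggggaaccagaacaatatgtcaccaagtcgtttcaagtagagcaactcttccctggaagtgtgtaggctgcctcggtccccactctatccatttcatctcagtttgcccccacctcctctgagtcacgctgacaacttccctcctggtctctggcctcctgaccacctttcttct
Itga4, chr2:79255176-79255425, plus strand: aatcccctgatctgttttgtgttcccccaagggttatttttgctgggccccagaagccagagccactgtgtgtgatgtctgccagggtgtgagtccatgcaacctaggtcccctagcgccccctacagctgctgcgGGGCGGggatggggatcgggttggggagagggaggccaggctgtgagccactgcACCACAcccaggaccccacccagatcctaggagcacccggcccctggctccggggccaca
Itgb7, chr15:102231936-102232185, minus strand: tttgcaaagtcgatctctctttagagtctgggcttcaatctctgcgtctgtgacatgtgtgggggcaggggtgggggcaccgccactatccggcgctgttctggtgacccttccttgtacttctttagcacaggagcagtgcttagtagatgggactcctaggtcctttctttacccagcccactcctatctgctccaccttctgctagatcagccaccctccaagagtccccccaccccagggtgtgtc

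The Itgam window held GAGGAA on 2 occasions and GGGCGG on 1, and the Itga4 window held GGGCGG and TGTGGT on 1 each. The Itgax and Itgb7 windows held none of the 3 strings, which says only that these letters are not in these windows. Among windows not shown, that of Itgav held GAGGAA on 2 occasions and that of Itgb1 held GAGGAA and GGGCGG on 1 each. Over 32851 promoter windows of the same length, 23.3% held GAGGAA, 32.7% held GGGCGG and 14.1% held TGTGGT.

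Whether a subunit varied over subtypes at all was asked first. Counts summed per animal were tested, for the 12 subtypes that had 10 or more cells from both animals, by the quasi-likelihood F test of edgeR, with Benjamini-Hochberg adjustment over 15488 genes and a threshold of 0.05. Of the 9 subunits, 8 were called, against 31.5% of all genes tested. Adjusted p by edgeR was 3.63e-05 for Itgax, 0.000136 for Itgb1, 0.000189 for Itgb2, 0.000246 for Itgb7, 0.00131 for Itgae, 0.00369 for Itgal, 0.00371 for Itgam and 0.0164 for Itga4. Itgav, the αV chain that binds vitronectin and activates latent TGFβ, was not called (adjusted p = 0.0615).

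**Figure D1:**
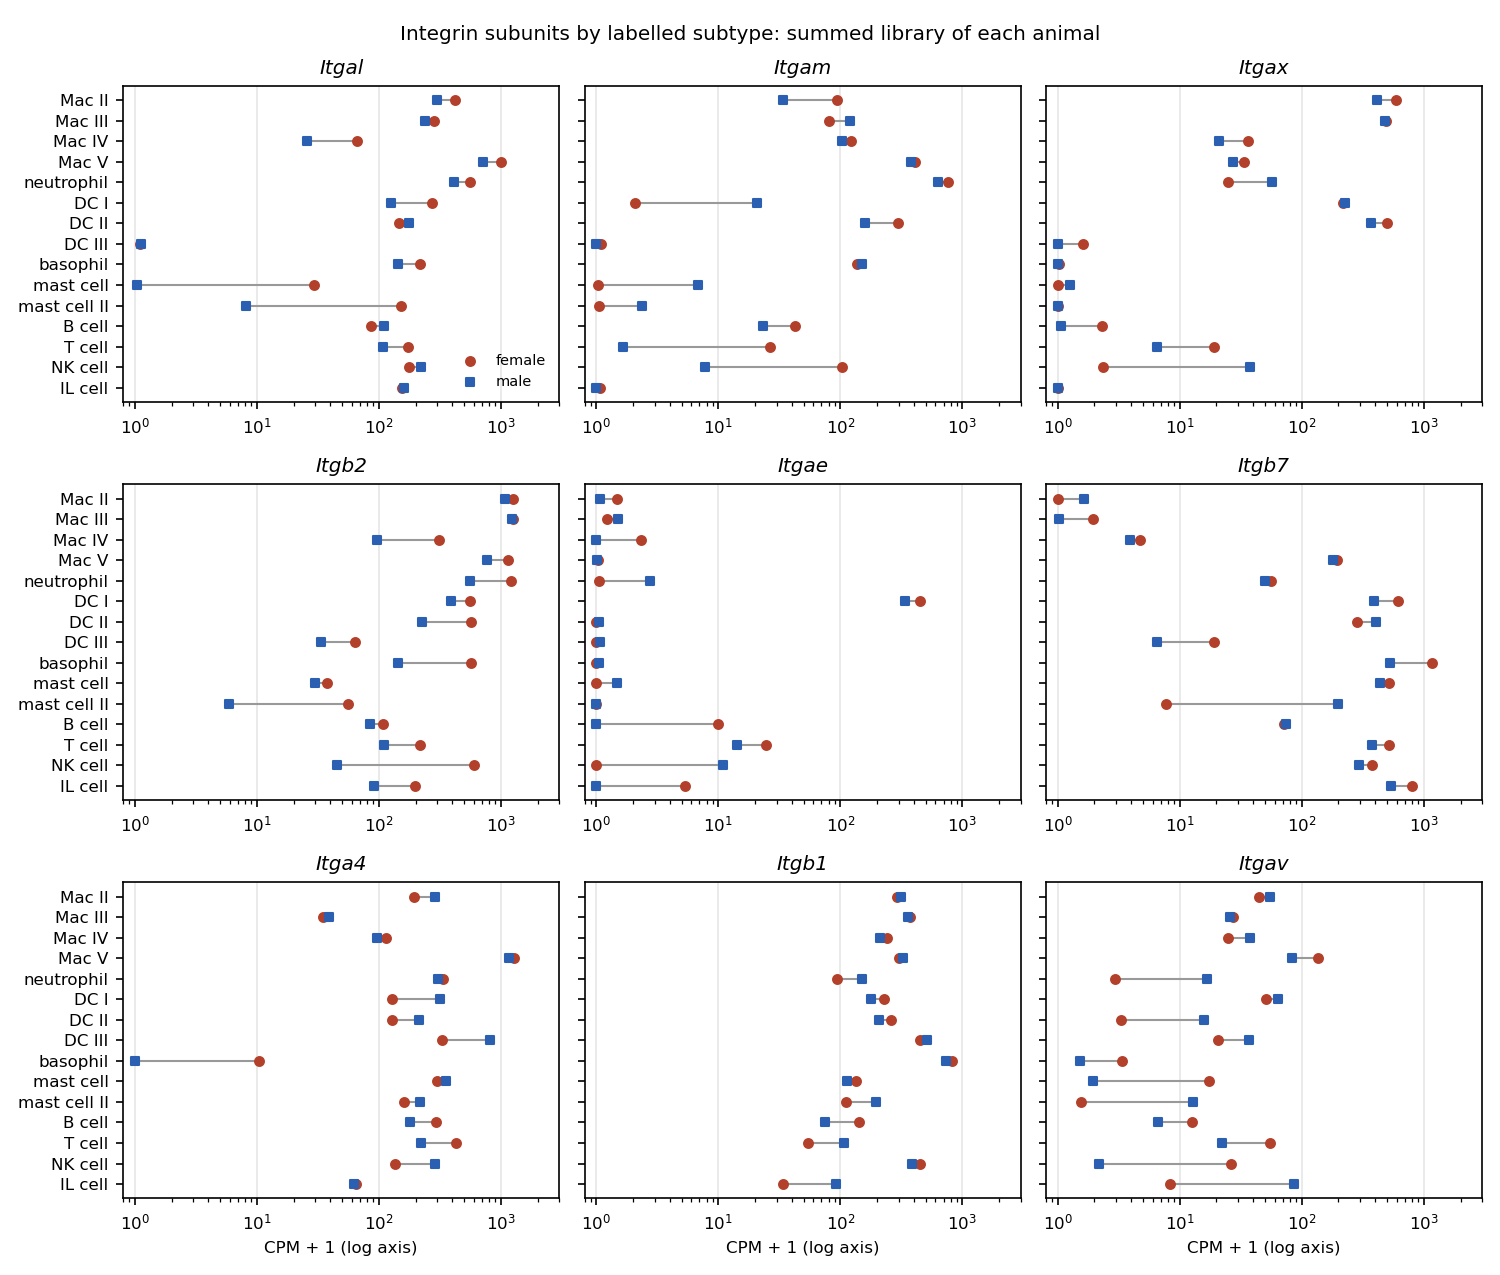
Level of each of the 9 subunits in the 15 subtypes that had 5 or more cells from both animals. The x axis is CPM + 1 on a log axis; the circle is the female, the square the male, and the grey line joins them. Itgae stood high in DC I only, at 452 and 340 CPM, while Itgb1 was above 30 CPM in all 15 subtypes.

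The β2 chain, Itgb2, was highest in 3 macrophage subtypes and in neutrophils. It stood at 1249 and 1239 CPM in Mac III, at 1248 and 1077 CPM in Mac II, at 1139 and 768 CPM in Mac V, and at 1215 and 555 CPM in neutrophils. These 4 subtypes each overlapped their neighbour in rank, so their order is not resolved. Mac IV stood lower at 311.1 and 94.8 CPM. By plate of CD45-sorted cells, the female's Mac IV had 519.1 CPM in run DC28 and 119.1 CPM in run DC35. The male's had 80.75 and 103.9 CPM, both in run DC35, and the cause was not tested. At the low end Itgb2 was 62.2 and 32.6 CPM in DC III, 36.8 and 28.7 CPM in mast cells and 54.3 and 4.88 CPM in mast cell II. To compare shares of cells at 1 depth, 100000 reads were drawn at random from each cell. At least 1 Itgb2 read was then found in 100% of Mac III cells and all 47 Mac II cells, but in 4 of 22 DC III cells (18.2%, 95% exact Clopper-Pearson interval 5.19 to 40.3%). This thinning left out 5 shallow cells, and the intervals cover counting error only. Reads carry no molecular identifiers, so copies of 1 molecule were counted apart.

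The 3 α chains that pair with β2 had different peaks. Itgal, the LFA-1 chain, was highest in Mac V at 1004 and 708 CPM, above neutrophils at 551 and 408 CPM in both animals. Itgam, the Mac-1 chain also called CD11b, was highest in neutrophils at 768 and 630 CPM, followed by Mac V at 411 and 379.2 CPM and DC II at 295.2 and 157.4 CPM. Those 3 levels of Itgam did not overlap between neighbours. Itgax, or CD11c, was highest in Mac II at 592 and 416 CPM, Mac III at 488 and 477 CPM and DC II at 500 and 365.6 CPM, which overlapped each other. It was next in DC I at 219.6 ± 6.16 CPM (SD, n = 2 animals), and in Mac V it was 32.7 and 26.4 CPM.

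Compared per length of exon, which allows levels of different genes to be set side by side, the mix of the 3 chains differed among myeloid subtypes. Itgax made up 63.3% and 62.5% of their summed CPM per kb in Mac III, against 2.82% and 2.91% in Mac V. Itgal made up 63.3% and 57.1% in Mac V, and Itgam 63.2% and 62.95% in neutrophils. In DC II the largest share was again Itgax, at 56.3% and 56.7%. The ranking of the 3 chains in these subtypes was the same in both animals.

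**Figure D2:**
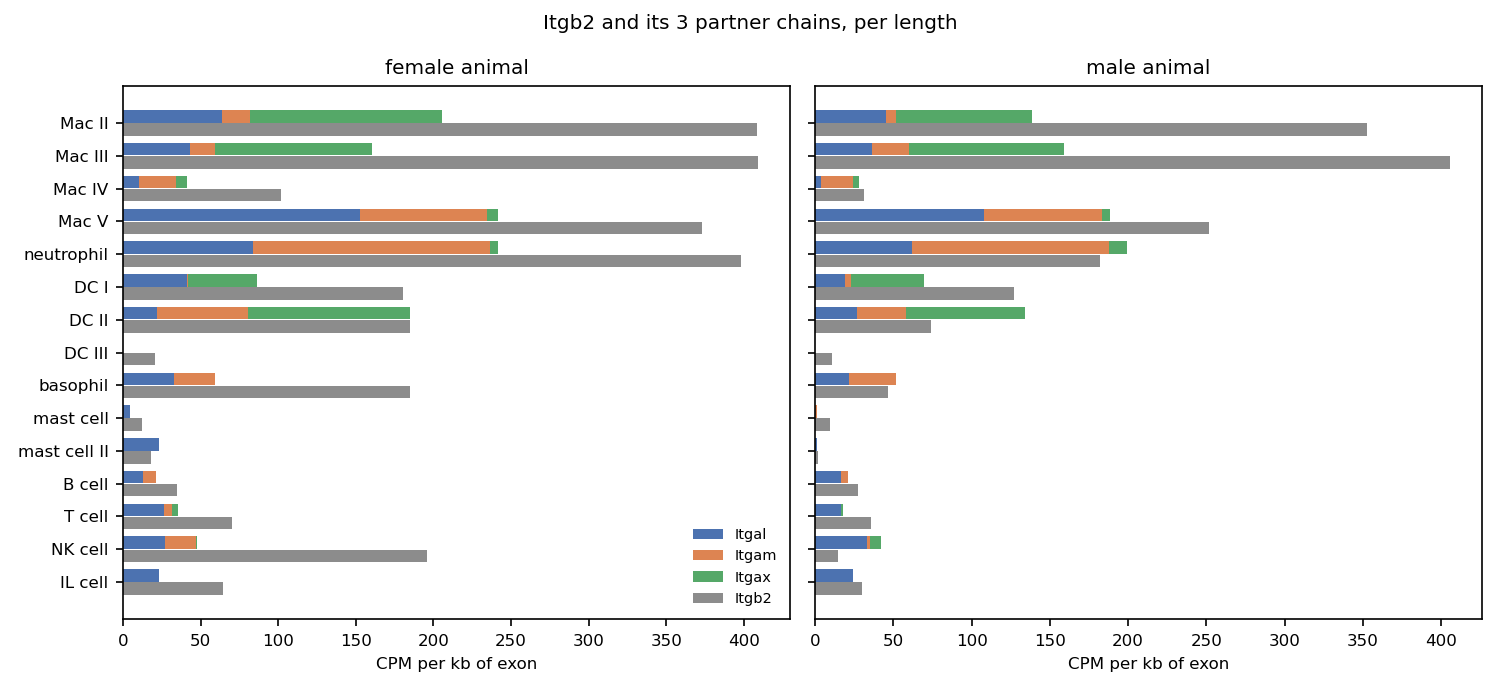
Summed level of the 3 α chains (stacked, coloured) and of Itgb2 (grey) in each subtype, in CPM per kb of exon, for the female (left) and male (right). Green, for Itgax, fills most of the bar in Mac II and Mac III, orange, for Itgam, in neutrophils, and DC III has almost no bar for the α chains.

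In Mac III and Mac V, reads of several of these chains were often found in 1 cell. Such counts partly restate how common each chain was in its subtype, and pairing within cells was not tested. All Mac III cells had an Itgb2 read at that depth, so finding Itgb2 beside an α chain there was fixed in advance. Of these cells, 2 had none of the 3 α chains. Of the Mac III cells, 51.7% had 2 of the chains and 41.7% had all 3. In Mac V, 75.5% of 110 cells had 2. In contrast, 21 of 22 DC III cells and 53 of 59 mast cells had none of the 3. DC III held 3 Itgal, 1 Itgam and 6 Itgax reads in all. DC III carries markers of mature, migrating dendritic cells such as Ccr7 and Fscn1, and its level of Icam1, which encodes a β2 integrin ligand, was 641 and 363.4 CPM. That was above the other 14 subtypes in both animals. DC I had 76.4 and 92.7 CPM, and the 114.3 CPM of the female's NK cells came to 97.9% from 1 cell.

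Across the 15 subtypes, the log2(CPM + 1) of Itgb2 had Pearson r of 0.72 and 0.73 with Itgal, 0.78 and 0.68 with Itgam and 0.70 and 0.75 with Itgax in the female and male. These are descriptions over 15 points that share libraries and depth. The gene most like Itgb2 was Lcp1, which encodes an actin-bundling protein of leukocytes (lower r of the 2 animals 0.90, among 7726 genes ranked). For Itgal it was Sema4d (0.88), for Itgam Clec4a2 (0.83) and for Itgax Sh3tc1 (0.88).

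Itgae, the αE chain also called CD103, was highest in DC I, at 452 and 340 CPM. T cells followed at 23.8 and 13.2 CPM, and in the other 13 subtypes it was under 10 CPM in both animals. In DC I it was found in 31 of 40 cells (77.5%, interval 61.5 to 89.2%), and in T cells in 6 of 46. In the male's T cells 1 cell gave 82.4% of the Itgae reads and in the female's 71.9%, so the T cell level rests on few cells. In DC II, 0 of 25 cells had a read after thinning. Taken as at most 3 cells, that allows a share of up to 12% with a read at this depth, and the exact upper bound is 13.7%.

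Itgb7, the chain shared by αE and α4, had its highest mean levels in basophils, IL cells, DC I, mast cells and T cells. It stood at 1163 and 532 CPM in basophils, 793 and 536 CPM in IL cells, 616 and 386.9 CPM in DC I, 514 and 440 CPM in mast cells and 513 and 374.6 CPM in T cells. Each of these overlapped its neighbour in rank. DC II and NK cells followed at 282.4 and 408 CPM and at 377.4 and 293.6 CPM, and B cells were lower, at 70.1 and 73.7 CPM. It was nearly missing from Mac III, at 0.936 and 0.017 CPM, and from Mac II, at 0 and 0.641 CPM. In Mac IV it was 3.71 and 2.91 CPM. A read was found in 49 of 53 basophils and 55 of 59 mast cells, but in 1 Mac III cell (0.257%). In mast cell II its levels of 6.79 and 195.9 CPM came to 100% and 95.95% from 1 cell in each animal. The gene most like it was Runx3 (0.78), which encodes a RUNX factor of lymphocytes.

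Itga4, the α4 chain also called CD49d, peaked in Mac V at 1266 and 1153 CPM, with no overlap with the next subtype, DC III, at 324.8 and 809 CPM. Mast cells followed at 297.5 and 351.1 CPM, T cells at 322.1 ± 147.2 CPM (SD, n = 2 animals) and neutrophils at 333.4 and 302.7 CPM, and these 3 overlapped. It was low in Mac III at 34.1 and 37.95 CPM and lowest in basophils at 9.33 and 0 CPM. All 110 Mac V cells had a read, against 2 of 53 basophils (3.77%, interval 0.460 to 12.98%). Of neutrophils 49.6% had one, and the cell medians of 1.23 and 25.8 CPM lay far below the highest cells at 3523 and 3248 CPM.

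**Figure D3:**
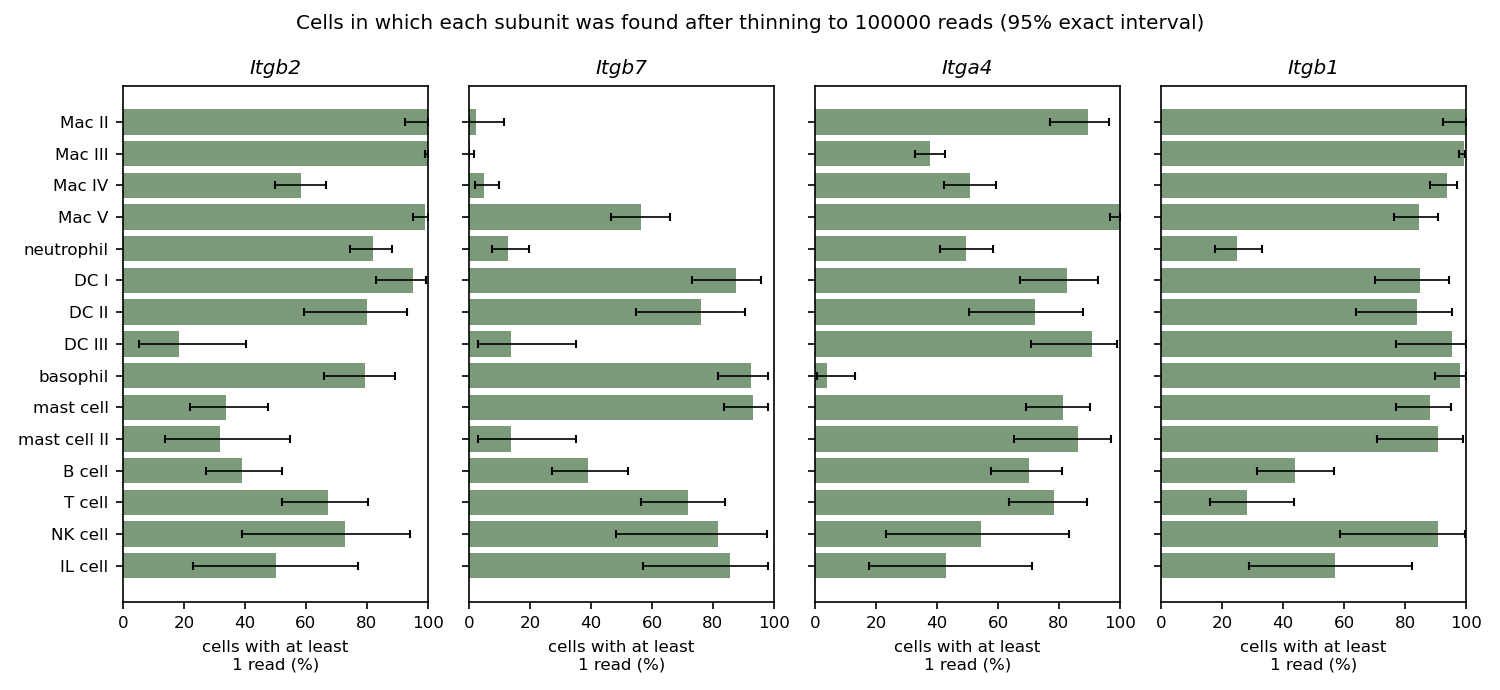
Share of cells of each subtype with at least 1 read of Itgb2, Itgb7, Itga4 or Itgb1 after thinning to 100000 reads, both animals together; bars show percent of cells and whiskers the 95% exact interval. Basophils stand high for Itgb7 and Itgb1 and at 3.77% for Itga4, and Mac III stands at 100% for Itgb2 and 0.257% for Itgb7.

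Itgb1, which pairs with many α chains and makes receptors for matrix, was above 30 CPM in each of the 15 subtypes in both animals. It was highest in basophils at 828 and 726 CPM, then DC III at 451 and 515 CPM, and its lowest mean was in IL cells at 32.8 and 90.6 CPM, which overlapped T cells at 79.9 ± 38.4 CPM (SD, n = 2 animals) and B cells at 141.8 and 73.2 CPM. Neutrophils stood at 92.7 and 148.9 CPM with a read in 24.8% of cells, against 99.2% of Mac III cells. Itgav had its highest mean in Mac V at 136.1 and 82.4 CPM. In the male, IL cells stood above that at 86.1 CPM, all from 1 cell, with 7.31 CPM in the female. It was 50.4 and 62.3 CPM in DC I. Most other subtypes overlapped one another.

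For β7 and its partners, the cells with an Itgb7 read differed in whether an α chain was found. A read of Itga4 or Itgae was found in 62 of 62 such Mac V cells, 34 of 35 in DC I, 45 of 55 mast cells, 26 of 33 T cells and 2 of 49 basophils (4.08%, interval 0.498 to 13.98%). Of 31 DC I cells with Itgae, 27 had Itgb7. Of 48 mast cells with Itga4, 43 had Itgb1 and 45 had Itgb7. At this depth, 47 of the 49 basophils with Itgb7 had no read of either α partner. Every Mac V cell had an Itga4 read, so the 62 of 62 was fixed in advance. The other shares are not set beside cells without the first gene and partly restate how common each chain was in its subtype. Pairing within cells was not tested. Over subtypes the r of Itgb7 was 0.31 and 0.30 with Itgae and -0.03 and -0.08 with Itga4.

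**Figure D4:**
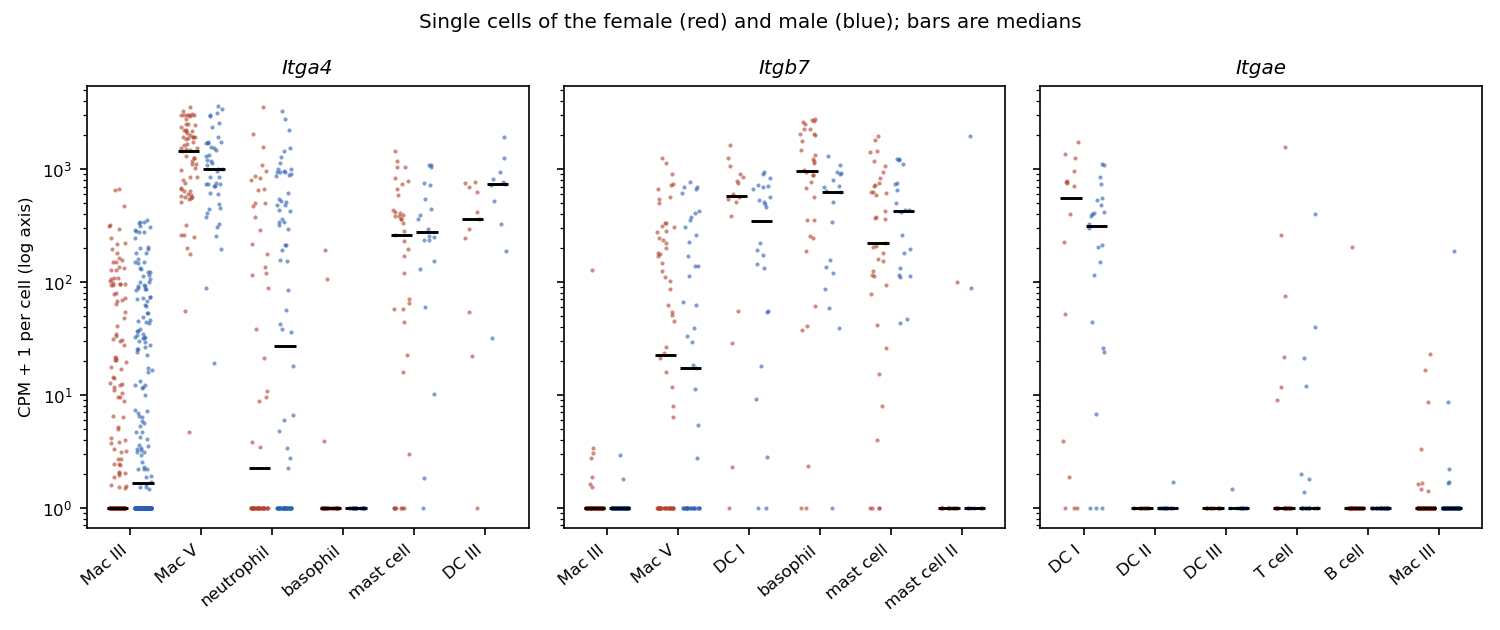
Level of Itga4, Itgb7 and Itgae in single cells of 6 subtypes each, as CPM + 1 on a log axis; each point is a cell, the female in red and the male in blue, and black bars are medians. Nearly all basophils lie at 0 for Itga4, and nearly all Mac III cells lie at 0 for Itgb7.

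Mac III was compared with Mac V, alveolar-type against monocyte-like cells. Itgb7 was the only one of 9 subunits called (0.839% of all genes were called), and it was lower in Mac III, at 0.936 and 0.017 CPM against 192.2 and 178.4 CPM (log2 fold -8.63 ± 1.60 SE, n = 2 animals, edgeR adjusted p = 0.0142). The groups did not overlap. Without the male's Mac III library the adjusted p by edgeR was 0.0981. In the female's Mac III, 1 cell gave 95.9% of the Itgb7 reads. Itga4 was 34.1 and 37.95 against 1266 and 1153 CPM (log2 fold -5.10, adjusted p = 0.0891) and Itgax 488 and 477 against 32.7 and 26.4 CPM (log2 fold 4.0, adjusted p = 0.219), both apart in the 2 animals and not called. Neither was called by edgeR with any 1 of the 4 libraries left out, while DESeq2, which called 7.68% of all genes, called both (adjusted p = 0.00016 and 0.0122). The median absolute log2 fold of the 9 subunits was 2.12, and that of all genes tested 1.07.

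A subunit that was not called is not shown to be alike in both subtypes. In Mac V the cells differed among themselves: cells with an Ace read and no Ly6c2 read had 1975 and 1954 CPM of Itga4, and those with Ly6c2 and no Ace 847 and 731 CPM. Itgal stood at 1493 and 1392 CPM in the cells with Ace only and at 619 and 362.2 CPM in those with Ly6c2 only. Itgb7 went the other way between these 2 classes, at 63.6 and 24.8 against 272.3 and 248.3 CPM. They held 32 and 16 cells with Ace only and 21 and 21 with Ly6c2 only. In the 11 and 3 cells with reads of both, Itgb7 was 327.8 and 324.4 CPM, so cells with Ace were not all low in it. Cells with neither numbered 2 and 4. These are descriptions, without a test.

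Mast cells and basophils were compared next, with 3 of 9 subunits called against 3.57% of all genes. Itga4 was higher in mast cells, at 297.5 and 351.1 CPM against 9.33 and 0 CPM (log2 fold 5.99 ± 1.38 SE, n = 2 animals, edgeR adjusted p = 0.0229). Itgb1 was lower, at 133.9 and 111.8 CPM against 828 and 726 CPM (log2 fold -2.84 ± 0.46, adjusted p = 0.00237). Itgb2 was lower too, at 36.8 and 28.7 CPM against 565 and 141.6 CPM (log2 fold -3.58 ± 0.73, adjusted p = 0.0108). In none of the 3 did the groups overlap. The median absolute log2 fold was 3.34 over the 9 subunits and 1.46 over all genes tested, and the subunit at that median was Itgae, on 13 reads in mast cells and 1 in basophils.

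The Itgb2 call was lost in 3 of 4 fits that left out 1 library: adjusted p by edgeR was 0.0834 without the female's basophils, 0.0731 without the female and 0.111 without the male mast cells. The Itga4 call was lost without the male mast cells, at 0.0607. With only the sequencing run shared by both animals, adjusted p was 0.106 for Itga4, 0.136 for Itgb1 and 0.207 for Itgb2, with log2 folds of 5.29, -2.53 and -3.42. Itgb7 was 514 and 440 against 1163 and 532 CPM and was not called (adjusted p = 0.741). Itgal and Itgam were lower in mast cells in both animals and not called (edgeR adjusted p = 0.117 and 0.0847). Each was called in 1 of 4 fits that left out a library: Itgal without the female's mast cells (adjusted p = 5.62e-05) and Itgam without the male's (adjusted p = 0.0285), which left mast cell libraries of 0.036 and 0.032 CPM. Of 10 other alternatives, 1 called Itgal and 3 called Itgam, while 6 called Itgb2, 8 called Itga4 and 9 called Itgb1.

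The other 4 comparisons called 0 of 9 subunits by edgeR, with 0.523% of all genes called for Mac III against Mac IV, 0.794% for neutrophil against Mac V, 0.497% for DC I against DC II and 0.303% for T cell against B cell. At an unadjusted p under 0.05 the counts were 3, 2, 3 and 2 subunits, against 9.54%, 15.5%, 10.8% and 11.1% of all genes. In the same order, the median absolute log2 fold was 1.49, 1.30, 0.68 and 1.18 over the 9 subunits and 0.97, 1.399, 1.04 and 1.00 over all genes tested. DESeq2 called 2, 1, 2 and 1 of them, against 4.82%, 12.1%, 8.81% and 7.93% of all genes. The limma voom fit called 5, 2, 1 and 1, against 16.6%, 5.09%, 1.96% and 3.4% of all genes. Itgae was 452 and 340 CPM in DC I and 1 read in all in DC II, and was still not called by edgeR (adjusted p = 0.161). Itgb2 was 1249 and 1239 CPM in Mac III and 311.1 and 94.8 CPM in Mac IV (log2 fold 2.68, adjusted p = 0.127). With the animal as a block, since both subtypes came from the same 2 mice, that difference was called (log2 fold 2.90, edgeR adjusted p = 0.0085, 0.646% of all genes called). Itgam was 1.08 and 19.8 CPM in DC I against 295.2 and 157.4 CPM in DC II (adjusted p = 0.385).

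For neutrophils against Mac V, the TMM factors that edgeR uses to scale libraries moved all log2 folds by 0.46 towards neutrophils compared with CPM. Itgb2 had a log2 fold of 0.40 towards neutrophils in the fit, while its pooled CPM was 849 in neutrophils and 1008 in Mac V, and the female and male moved in opposite directions, so no direction is given. The shift was 0.14 for DC I against DC II and -0.18 for mast cell against basophil. T cells had 513 and 374.6 CPM of Itgb7 against 70.1 and 73.7 CPM in B cells (log2 fold 2.71, adjusted p = 0.434).

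Selplg, which encodes the leukocyte adhesion protein PSGL-1, was lower in mast cells (453 and 471 CPM) than in basophils (2110 and 1592 CPM; edgeR adjusted p = 0.00379) and higher in T cells (1111 and 1562 CPM) than in B cells (259.2 and 257.9 CPM; edgeR adjusted p = 0.00935).

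Of other integrin subunits, 13 of 17 tested varied over the 12 subtypes, beside 20 of 34 adaptors and 10 of 12 ligands, against 31.5% of all genes tested. Itgb2l, a close relative of Itgb2 whose reads could be split with it, stood at 336.5 and 208.6 CPM in neutrophils and had 0 reads in Mac V (edgeR adjusted p = 0.0299). Itga2b, best known from platelets, was 120.1 and 135.1 CPM in basophils and 49.8 and 42.6 CPM in mast cells. The platelet genes Ppbp and Gp9 had 0 reads in both, and Pf4 had 1 read in basophils.

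Among adaptors, Fyb, which links signals to integrin activation in lymphocytes, was 6.02 and 5.07 CPM in Mac III and 1050 and 1282 CPM in Mac V (edgeR adjusted p = 0.000282). Cd9, a tetraspanin that associates with integrins, was 5424 and 5203 CPM in Mac III against 405 and 380 CPM in Mac V (edgeR adjusted p = 0.000205). Both were also called against Mac IV in the same directions. Apbb1ip, Zyx and Cd9 were higher in basophils than mast cells. From a list other than the adaptors, Klf2, a transcription factor of leukocyte trafficking, was 60.5 and 43.6 CPM in Mac III and 709 and 511 CPM in Mac V (edgeR adjusted p = 0.0287). The adaptors Tln1 and Fermt3, which encode the talin and kindlin that switch integrins on, were not called in any of the 6 pairs. For Tln1 in Mac III against Mac V the edgeR adjusted p was 0.051 (log2 fold -1.85). Over the 12 subtypes Tln1 was called (edgeR adjusted p = 0.00388) and Fermt3 was not (adjusted p = 0.487).

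Among ligands, Fn1, encoding fibronectin, stood at 1085 and 1686 CPM in Mac V and 1.42 and 0.343 CPM in neutrophils (edgeR adjusted p = 0.00914). It was also higher in DC II, at 268.1 and 177.2 CPM, than in DC I, at 0.155 and 0.148 CPM (edgeR adjusted p = 0.00948). Cdh1, encoding E-cadherin, the ligand of αEβ7, was 373.6 and 287.2 CPM in basophils and 85.1 and 97.2 CPM in Mac III, with 5 reads in mast cells (edgeR adjusted p = 0.0298 for mast cell against basophil). Vcam1, the ligand of α4β1, was found at 62.5 and 30.2 CPM in Mac IV and 101.2 and 22.4 CPM in DC III, and under 1 CPM in both animals in the other 13 subtypes. In DC III it was found in 4 of 22 cells, and 1 cell gave 57.4% of the female's reads and 99.4% of the male's.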

How the data were processed

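The authors deposited unnormalised read counts, 1 column per cell. Reads were aligned with STAR 2.5.2b and counted with HTSeq 0.10, per the submitters' processing notes, which name the build GRCh38, a human build name, although the organism is mouse. No coordinate is therefore tied to the counts. The 9 members and the gene lists were chosen with earlier results of these data known. Counts were summed per animal and labelled subtype. The 24 libraries of 12 subtypes entered 1 edgeR 4.0.16 fit (R 4.3.3, quasi-likelihood F test, TMM, filterByExpr, 12 residual degrees of freedom, common biological coefficient of variation 1.09). limma 3.58.1 and DESeq2 1.42.0 were alternatives. CPM uses no TMM factors, and exon lengths come from GENCODE M21. The fit was tested on simulated data. Of 8-fold changes it called 12% for Mac III against Mac V, 5% for mast cell against basophil and 6% over the 12 subtypes. Of 64-fold changes it called 78%, 70% and 64.5% in the same order. Most simulated 8-fold changes were thus missed. Before the changes, each simulated gene had 1 mean level over all subtypes. Its spread came from the trend with expression level and was not its own. Changes were put in 100 genes per fold and pair, with a mean of at least 20 CPM, and only in the 2 subtypes of that pair. The real data differ in these points, so the shares are not the power for each subunit. Named list genes were those called with at least 20 CPM in the higher subtype in both animals, at most 6 per comparison, plus Selplg, Icam1, Vcam1, Cdh1, Tln1 and Fermt3. Another gene is not reported here. Likeness is the lower Pearson r of the 2 animals over 15 subtypes. Libraries of different subtypes come from the same 2 animals by their labels. Deviations of same-animal libraries correlated between -0.0601 and 0.0773 over 66 pairs of subtypes. No doublet caller was run, since each well was sorted for a single cell, and cells without 100000 reads were left out of shares.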

Additional observations from a re-analysis of the deposited data

Results flagged for a closer look

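The single Mac I cell, from the male, entered no comparison, and it held reads of 7 of the 9 subunits. Its levels were 229.1 CPM for Itgb2, 169.7 CPM for Itgb1, 132.4 CPM for Itgam, 61.88 CPM for Itgav, 54.5 CPM for Itgb7, 29.51 CPM for Itgal and 10.25 CPM for Itga4, from 2440163 reads. Itgax and Itgae had 0 reads in it. These are above the 3 reads that a count of 0 allows, and 1 cell gives no spread.

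In 11 cases the 2 animals moved in opposite directions for a subunit in 1 of the 6 pairs of subtypes. With 1 animal per sex the difference was not tested. It cannot be fully told apart from the run, since run DC28 held female cells only. The values are log2 ratios of CPM + 1, the first subtype over the second, with the female before the male. For Mac III over Mac IV they were -0.582 and 0.228 for Itgam, -0.922 and 0.586 for Itgae, and 0.157 and -0.548 for Itgav. The Itgae levels there were near the floor, at most 1.32 CPM, and 1 cell gave all Itgae reads of the female's Mac IV. For neutrophils over Mac V they were -0.451 and 1.05 for Itgax and 0.0931 and -0.467 for Itgb2. For DC I over DC II they were 0.906 and -0.502 for Itgal, -0.0369 and 0.775 for Itgb2, and 1.12 and -0.0761 for Itgb7. For mast cells over basophils they were -0.0289 and 0.327 for Itgax. Those Itgax values rest on 0 reads against 1 in the female and 7 against 0 in the male. For T cells over B cells they were 1.01 and -0.0306 for Itgal and -1.41 and 0.543 for Itgb1. None of these 11 was called in the edgeR fit.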

How the results depend on the processing

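The count of subunits called over the 12 subtypes stayed between 7 and 9 in 8 alternatives. For pairs, counts depended on the tool, and so did the share of all genes called over the 6 pairs, which ran from 4.82 to 19.3% with DESeq2, 1.96 to 17.2% with limma voom and 0.411 to 12% with only the 2 subtypes compared. Mac III against Mac V went from 1 to 3 with DESeq2 and to 6 with limma voom and with only those 2 subtypes in the fit, and ranged from 0 to 1 with a library left out. Mac III against Mac IV went from 0 to 2 with DESeq2, 5 with limma voom, 4 with only those 2 subtypes and 1 when all cells were given equal weight by scaling. With the animal as a replicate block it also went to 1, and the block changed no other count of calls. Neutrophil against Mac V went from 0 to 1 with DESeq2 and 2 with limma voom. DC I against DC II went from 0 to 2 with DESeq2, and to 1 with limma voom and with only those 2 subtypes. Mast cell against basophil went from 3 to 5 with DESeq2, 1 with only those 2 subtypes and 0 with only run DC35, and ranged from 2 to 3 with a library left out. T cell against B cell went from 0 to 1 with DESeq2, limma voom and only those 2 subtypes. With a library left out the other counts were 0. Sign changes were counted only where the absolute log2 fold was at least 2 in the main fit. Itgb2 in neutrophil against Mac V was the only smaller fold included. Of these log2 folds in alternatives, 5 (1.29%) turned sign, and none of them was called. The other smaller folds were left out, so this share does not describe how stable all directions were. For mast cell against basophil, with a library left out, Itgax ran from -3.16 to 5.82, Itgae from -3.52 to 6.87 and Itgav from -0.75 to 3.85, all on low counts. For Itgb2 in neutrophil against Mac V the fold went to -0.10 with limma voom, and from -0.49 without neutrophil replicate 1 (female) to 0.90 without neutrophil replicate 2 (male). The causes were not tested. For levels, 18.9% of values moved by more than the spread between animals, and for shares 9.63% left their interval. The shortlists of most alike genes were less stable: with Spearman's rho, Itgal and Itgae shared 0 of 3 genes.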
